A study of Mus musculus with 7 samples.

Results

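Isl1 and Barx1 are 2 homeobox genes that are used as landmarks of incisor and molar identity in the mouse jaw. Their chromatin was described here from the ATAC-seq peaks lying inside or within 200 kb of each gene body. Peaks of the 7 libraries that shared at least 1 bp were joined into sites, which gave 15 sites at Isl1 and 43 at Barx1, together 58 of the 128642 autosomal sites of the series. The genes are 2 of the 20665 autosomal protein-coding genes in the RefSeq table used.

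ATAC-seq marks DNA that a transposase can reach, so a peak stands for accessible chromatin. The libraries were made from mouse tissue in 5 groups. Ectoderm of the first pharyngeal arches, peeled from the mesenchyme at embryonic day 11.5 (E11.5), gave 2 libraries. Sox2-positive cells, sorted from the labial cervical loop of the lower incisor at postnatal day 2 (P2) through a GFP reporter driven by the endogenous Sox2 promoter, gave 2 libraries. The P2 whole lower incisor, whole lower molar and whole upper molar (the first molar of each jaw) gave 1 library each. No treatment or mutation is named. Neither the number of animals pooled, nor whether the replicates came from separate animals, nor whether the whole teeth and the ectoderm carried the reporter is stated in the labels. A whole tooth holds epithelium and mesenchyme, while the sorted cells were selected as one epithelial population, whose purity was not tested. The 3 incisor libraries (whole incisor and both Sox2-positive libraries) are therefore not replicates of each other. In such bulk material, fewer cells with an open site and a weaker opening in each cell cannot be told apart.

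Teeth of different shape arise from one sheet of oral ectoderm over neural crest mesenchyme, and homeobox genes mark out the jaw before any tooth is visible. Isl1 encodes a LIM-homeodomain transcription factor known from motor and sensory neurons and from heart progenitors. In the early jaw it is found in the distal oral epithelium, where incisors form, and it acts there together with the signal Bmp4. Barx1 encodes a homeodomain transcription factor of the proximal mesenchyme, where molars form. It is induced by Fgf8 from the ectoderm and held back distally by Bmp4, and it is also known from stomach mesenchyme. Both statements are background and were not measured here.

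The annotated starts of both genes lay in stretches rich in CpG, and their 300 bases are shown because the start of Isl1 was under a peak in every library and that of Barx1 was not. Both sequences come from RefSeq (GRCm38.p6), run 5′ to 3′ on the strand of the gene, and cover 250 bases before and 50 bases after the start. Isl1 lies on the minus strand at chr13:116309639-116309938 and Barx1 on the plus strand at chr13:48662786-48663085. Capitals mark a match to one of the 6 motifs searched. In what follows, positions and distances before a start are negative and those past it positive.
Isl1: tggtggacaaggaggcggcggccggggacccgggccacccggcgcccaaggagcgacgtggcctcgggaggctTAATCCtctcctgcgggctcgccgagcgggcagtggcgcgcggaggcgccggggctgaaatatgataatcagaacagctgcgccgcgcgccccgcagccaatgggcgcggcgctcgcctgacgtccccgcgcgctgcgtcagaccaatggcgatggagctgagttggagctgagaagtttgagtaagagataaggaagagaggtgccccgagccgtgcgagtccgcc
Barx1: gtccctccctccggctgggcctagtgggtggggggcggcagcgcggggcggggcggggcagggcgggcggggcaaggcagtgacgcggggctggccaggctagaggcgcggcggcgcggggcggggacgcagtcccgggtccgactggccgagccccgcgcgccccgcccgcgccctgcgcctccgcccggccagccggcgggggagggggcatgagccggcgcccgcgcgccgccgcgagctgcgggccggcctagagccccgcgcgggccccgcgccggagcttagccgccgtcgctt

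The Isl1 stretch held 37 CpG and the Barx1 stretch 50, against a median of 7 over the 31396 autosomal promoter sequences of the table. As many as at Isl1 were found in 5.77% of them and as many as at Barx1 in 0.879%. The 6 motifs were searched on both strands. TAATCC, the core that bicoid-type homeodomains recognise, matched once at Isl1, with its first base at position -177 from the start, and it occurs in 7.06% of the promoters. The other motifs, none of which matched in either stretch, were the homeodomain core TAATTA (in 5.27% of promoters), the AP-1 motif TGANTCA (7.84%), the Lef/Tcf motif CTTTGAT (3.76%), the Runx motif AACCACA (5.32%) and the Tead motif GGAATG (14.6%). None of the 6 was present in the Barx1 stretch, and a missing motif says only that these letters are not in this window.

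All 7 libraries had a peak over the start of Isl1, in the site at chromosome 13, 116308995 to 116310309. The deposited −log10 p of this peak was 8.26 and 7.32 in ectoderm, 5.58 and 5.22 in the sorted Sox2-positive cells, 6.35 in whole incisor, 5.91 in lower molar and 5.53 in upper molar. In each library the peak covered all 300 bases printed above, and its summit lay between positions -79 and -16 from the start. These significance values are not normalized between libraries, so they place a peak within its own list only. By rank in the autosomal list, the Isl1 start was in the top 6.04% and 10.1% of ectoderm peaks, in the top 19.0% and 25.9% of Sox2-positive peaks, and in the top 14.6%, 21.0% and 26.7% of the peaks in incisor, lower molar and upper molar. An open start in every library was the usual case, found at 54.2% of 16457 annotated genes (50.5% with the top 38000 autosomal peaks of each list), so it does not set incisor apart from molar.

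A site inside the Isl1 gene body, centred 4.89 kb past the start (116303845 to 116305761), was likewise present in every library. Its −log10 p was 6.86 and 5.93 in ectoderm, 5.29 and 4.95 in the sorted cells, 6.22 in incisor, 4.74 in lower molar and 5.16 in upper molar. The ectoderm peaks here were 1661 and 1884 bp wide and the P2 peaks 327 to 762 bp.

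The site that separated incisor from molar at Isl1 lay just beyond the other end of the gene. It ran from 116296542 to 116297965, which begins 0.305 kb past the 3′ end of the gene body and is centred 12.4 kb from the start, between genes. It had a peak in both ectoderm libraries, both Sox2-positive libraries and whole incisor, and in neither molar. The −log10 p was 8.08 and 6.91 in ectoderm, 6.28 and 5.43 in the sorted cells and 5.86 in incisor. All 5 summits fell between 12157 and 12163 bases from the start. The molar lists, with 68877 and 67193 autosomal peaks, were longer than the incisor list of 62074, and they held no peak here. When each list was limited to its top 38000 autosomal peaks by p-value, the site kept its peak in the same 5 libraries, since the lowest of its 5 ranks was 12181 (in incisor). Both molars without any incisor library shared 1 of the 8 Isl1 sites with a peak in a P2 library (13.8% of all such sites), or 0 of 6 with the top 38000 (8.12%). Of the 89387 sites with a peak in a P2 library, 0.751% had one in all 3 incisor libraries and in neither molar (3.22% with the top 38000). At least 1 site of this kind within 200 kb of the gene body was found at 3205 of 20665 genes (15.5%, or 36.2% with the top 38000 lists). Within 20 kb, a span chosen after the positions were seen, 660 genes had one (3.19%, or 8.71% with the top 38000 lists). These shares describe how common the pattern was and are not a test.

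The reverse pattern at Isl1 was seen only far upstream. A site at -134 kb from the start (116442965 to 116443882) had a peak in both ectoderm libraries, in Sox2-positive replicate 1 and in both molars, but in neither Sox2-positive replicate 2 nor whole incisor. The −log10 p was 10.6 and 8.43 in ectoderm, where the site ranked 381 and 1900, 3.93 in Sox2-positive replicate 1, 4.99 in lower molar and 5.13 in upper molar. The same libraries kept it among their top 38000 peaks. A second site, at -152 kb (116461188 to 116462164), was open in ectoderm and in the molars, all 4 libraries, and had no peak in any incisor library. Its molar peaks ranked 64070 and 60281 and were lost from the top 38000 lists, so that this difference rested on the lower end of the molar lists.

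**Figure D1:**
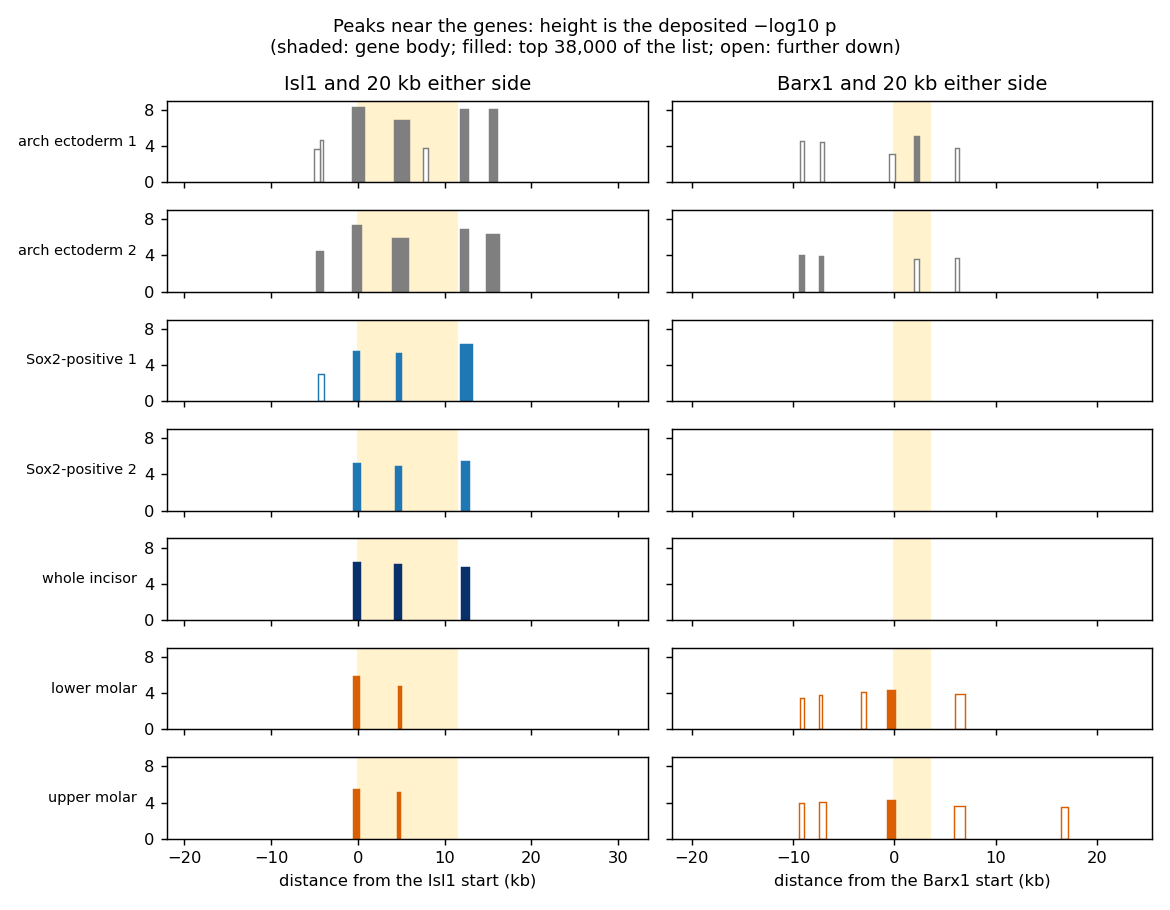
Peaks within 20 kb of the Isl1 (left) and Barx1 (right) gene bodies in the 7 libraries, with distance from the gene start in kb on the x axis and the deposited −log10 p of each peak on the y axis. Filled bars are among the top 38000 autosomal peaks of their list, open bars are further down, and shading marks the gene body. The Isl1 peak past the gene end is present in the upper 5 libraries and absent in both molars, and the Barx1 panel is empty in the 3 incisor libraries.

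Counted over the whole 200 kb on either side, Isl1 had its most sites in ectoderm. Sites with a peak numbered 15 and 11 in ectoderm, 7 and 4 in the sorted cells, 3 in whole incisor and 4 in each molar. With the top 38000 peaks per library they numbered 9, 11, 6, 4, 3, 3 and 3 in the same order. Both ectoderm libraries were above all 5 P2 libraries with either kind of list. Over the windows of all genes, the median was 22, 14, 12, 11, 17, 19 and 18 sites in the full lists, above the Isl1 count of each library. The median was 11 in every library with the top 38000 peaks, which ectoderm replicate 2 equalled at Isl1 and the other 6 libraries did not reach. No other protein-coding gene lay in the window. The nearest, Parp8 and Itga1, began 541 kb and 1196 kb away.

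Of the 15 Isl1 sites, 7 had a peak in ectoderm only, of which 3 were in both replicates and 4 in replicate 1 alone. At Barx1, 13 of 43 sites were in ectoderm only. No share over all autosomal sites is given for this class, and ectoderm replicate 1 had the longest list, so these counts have no background. All 4 Isl1 sites in ectoderm replicate 1 alone lay outside the top 38000 of that list. Sites in both ectoderm and in neither Sox2-positive library numbered 4 of 15, against 23.2% of all sites compared (3 of 11 against 18.6% with the top 38000). One of these, centred 15.5 kb past the start and next to the site described above (116293409 to 116294890), had a −log10 p of 8.13 and 6.36 in the ectoderm replicates and no peak in any P2 library. No Isl1 site was in both Sox2-positive libraries and absent from ectoderm, where 7.68% of all sites were. A site centred 143 kb past the start (116166385 to 116167407) was shared by the ectoderm and Sox2-positive libraries, all 4 of them, and was missing from the 3 whole teeth. Its −log10 p was 6.95 and 5.40 in ectoderm and 5.53 and 3.97 in the sorted cells. Within 20 kb of the gene, whole incisor and both Sox2-positive libraries had the same 3 sites (start, gene body and 3′ site), and Sox2-positive replicate 1 had a further peak at -4.51 kb near the bottom of its list (rank 41622 of 41829).

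**Figure D2:**
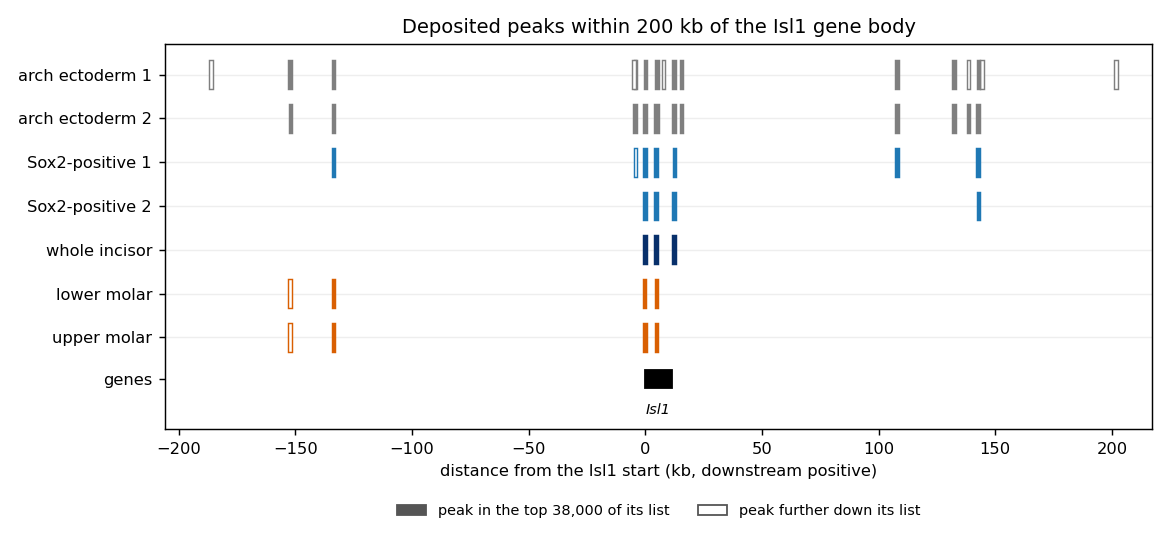
Positions of all deposited peaks within 200 kb of the Isl1 gene body, one row per library, by distance from the gene start in kb; peaks narrower than 1.5 kb are drawn 1.5 kb wide. Filled peaks are in the top 38000 of their list and open peaks are not. Whole incisor has 3 peaks, all close to the gene, while both molars have peaks at -134 and -152 kb.

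Among the 5 Isl1 sites with a peak in a whole tooth, 2 were in both molars and not in incisor, 1 was in incisor and in neither molar, and 2 were in all 3 teeth. The shares over all 85752 sites compared were 17.9%, 13.9% and 49.1%. So few sites cannot be set apart from that background. The incisor site adjoined the gene and the molar sites were 133 and 152 kb from the gene body. The nearer molar site also had a peak in Sox2-positive replicate 1. At the farther one the molar peaks ranked only 64070 and 60281. No share over all sites is given for distance, and each tooth had 1 library, so a difference in position between tooth types was not tested.

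At Barx1 the pattern near the gene was the other way round. In the full lists, whole incisor and both Sox2-positive libraries had no peak in the gene body or within 20 kb of it, while each molar had 5 and the ectoderm libraries 5 and 4. With the top 38000 peaks, each molar had 1, the ectoderm libraries 1 and 2, and the incisor libraries 0. The molar peaks outside the top 38000 ranked from 40718 down in lower molar and from 43234 down in upper molar. The Sox2-positive lists held only 41829 and 38326 autosomal peaks, so most of this contrast with the sorted cells cannot be told apart from list length. The nearest peak to the gene body was 31.7 kb away in incisor and 27.2 and 31.7 kb away in Sox2-positive cells. Of the 7 sites in this span, 4 had a peak in both molars and in no incisor library, 1 in lower molar only, 1 in upper molar only and 1 in ectoderm only. The span of 20 kb was chosen after the positions were seen. Of 20665 genes, 305 (1.48%) had no peak of any incisor library and at least 1 site in both molars within the same distance, and 157 (0.760%) with the top 38000 lists. At least 4 sites in both molars and no incisor library were found within 20 kb of 482 genes (2.33%). With the added condition of no incisor-library peak at all in the span, Barx1 was the only gene left (0.00484% of genes), and 2 genes met it in the top 38000 lists (0.00968%), Barx1 not among them. Both conditions were set after Barx1 was seen, so these counts describe it and support nothing.

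The start of Barx1 was under a peak in both molars and in ectoderm replicate 1, in the site from 48662273 to 48663092. The −log10 p was 4.33 in lower molar, 4.32 in upper molar and 3.13 in ectoderm replicate 1. The molar peaks covered 287 and 300 of the 300 bases printed above, with summits at positions -272 and -106. In ectoderm replicate 1 the peak ranked 80016 of 80850, at the bottom of the list, and replicate 2 had none. An annotated start with a peak in both molars and in no incisor library was found at 156 of 16457 genes (0.948%), and at 57 (0.346%) with the top 38000 peaks. The molar peaks ranked 36269 and 36143 by p-value, just inside 38000, so they kept their place in the equal lists by a small margin and fell out when only the better 50% of each list was kept. In the top 38000 lists the site was in both molars and in none of the other 5 libraries, the only one of the 26 Barx1 sites in those lists, against 4.83% of all sites. In the full lists 0 of 43 were, against 6.26%. By peak signal the molar peaks ranked higher, at 18612 and 18543, in the top 27.0% and 27.6%.

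Ectoderm and molar shared 3 further sites around Barx1 that no incisor library had. They were centred at -9.16 kb (48653659 to 48654099), at -7.08 kb (48655588 to 48656325) and 6.42 kb past the start (48668905 to 48670013). At the first of them the −log10 p was 4.51 and 4.08 in ectoderm, 3.45 in lower molar and 3.93 in upper molar. The second gave 4.47 and 3.96 in ectoderm, 3.81 in lower molar and 4.03 in upper molar. At the third, beyond the 3′ end of the gene, the values were 3.74 and 3.68 in ectoderm, 3.88 in lower molar and 3.65 in upper molar. All were peaks of low rank. In the top 38000 lists both upstream sites remained in ectoderm replicate 2 alone, and the downstream site in no library. The pattern of both ectoderm and both molar libraries without any incisor library was carried by 3 of the 43 Barx1 sites and 2.36% of all 128642 sites (none of 26 and 1.20% with the top 38000). The lower molar peak at -9.16 kb had a signal of 200.382, against the lowest signal of 200.001 in any list, and so stood at the limit of what was listed.

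Inside the Barx1 gene body, a site centred 2.17 kb past the start (48664947 to 48665472) had a peak in ectoderm only, with a −log10 p of 5.07 and 3.61. It was the strongest ectoderm peak in the 20 kb span in replicate 1. The single-molar sites were at -3.03 kb in lower molar (−log10 p 4.16) and 16.8 kb past it in upper molar (3.46), both outside the top 38000.

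Markers of other cell types give the setting for the Barx1 result, since Barx1 is known as a mesenchymal gene. A marker was counted as open with a peak no more than 1 kb from either end of its gene. No share over all genes is given for this rule, so the marker counts have no background. By a related measure, 54.2% of 16457 annotated genes had an open start in all 7 libraries. Each of the 7 libraries had 5 of 6 epithelial markers open, and Trp63 in none. The rule does not look at peaks deeper inside a gene, so Trp63 is not shown to be closed. Of 7 mesenchymal markers, 6 were open in both ectoderm libraries, 5 in each Sox2-positive library, 6 in incisor and 5 in each molar. Pax9 was open in ectoderm and incisor and in none of the other 4 libraries, and Pdgfra in all P2 libraries and neither ectoderm library. Most mesenchymal markers were thus open as well in the ectoderm and Sox2-positive libraries. Whether these held some mesenchyme was not tested, so the count is not used to say how much mesenchyme a library held. The 2 odontoblast markers were at 0 in all libraries except Dspp in incisor, and of 3 ameloblast markers 1 was open in each incisor library and 2 in each molar. Of 4 blood markers, Spi1 was open in all 7 libraries and Ptprc, Cd52 and Hbb-bt in none. Of 4 endothelial markers, Kdr was open in all 7, Cdh5 in incisor and lower molar, and Pecam1 and Tek in none. Open neural and Schwann cell markers numbered 3 and 1 of 5 in ectoderm, 0 in the sorted cells, 1 in incisor and 2 in each molar, with Sox10 open in none. Open muscle markers numbered 2 and 1 of 3 in ectoderm, 1 and 0 in the sorted cells, 1 in incisor and 2 in each molar, with Myf5 open in none and Myog in 5 libraries, incisor and both molars among them. Pou4f1 and Myod1, which mark sensory neurons and muscle progenitors, were open in the ectoderm and molar libraries, Pou4f1 also in incisor, and neither in Sox2-positive cells. The part of cell composition in the Isl1 and Barx1 differences was not tested.

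**Figure D3:**
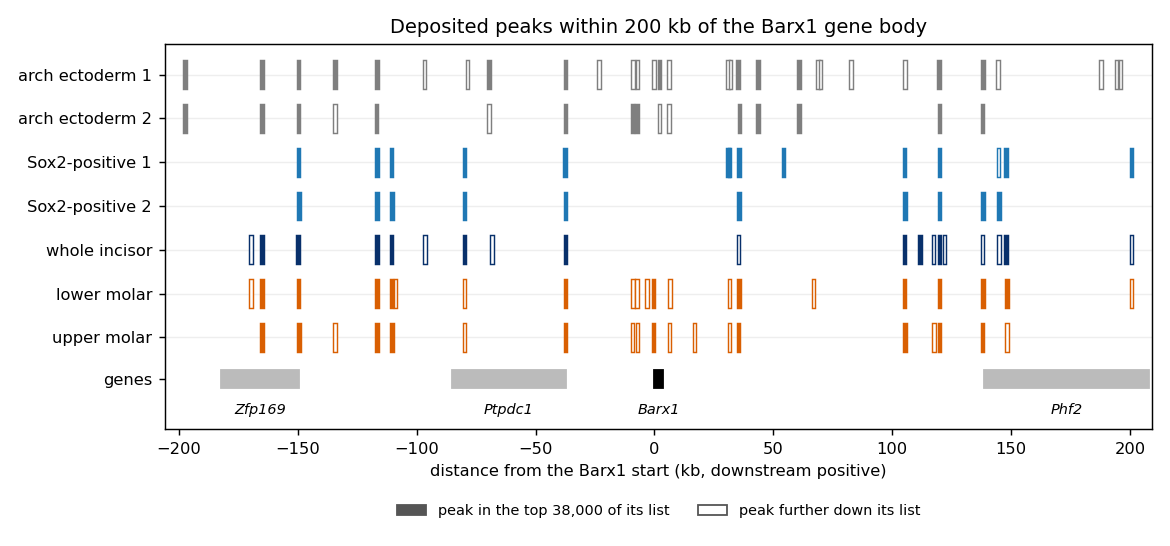
Positions of all deposited peaks within 200 kb of the Barx1 gene body, one row per library, by distance from the gene start in kb; peaks narrower than 1.5 kb are drawn 1.5 kb wide, and grey boxes are the neighbouring genes. Filled peaks are in the top 38000 of their list and open peaks are not. Peaks shared by all libraries lie at the neighbours and between genes, and the stretch around Barx1 holds peaks in ectoderm and molars only.

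Over the whole Barx1 window the whole teeth had similar numbers of sites. Sites with a peak numbered 29 and 16 in ectoderm, 13 and 10 in the sorted cells, 19 in incisor, 21 in lower molar and 19 in upper molar. In the top 38000 lists they numbered 13, 12, 13, 10, 10, 11 and 10. Of 29 sites with a peak in a whole tooth, 5 were in both molars and not in incisor (17.9% of all sites), 5 were in incisor and in neither molar (13.9%), and 11 were in all 3 teeth (49.1%). At equal list length there were 3, 2 and 7 of 13 sites, against 16.3%, 18.5% and 48.5%. Both kinds of count lay near the background. In the full lists 4 of the 5 molar sites were within 20 kb of Barx1 and the fifth was 27.2 kb away, while the 5 incisor sites began 68.1 kb or more from the gene body. This order by distance was not kept in the top 38000 lists, where 1 of the 3 molar sites lay at the gene start, 1 at 35.4 kb and 1 at 138 kb past it, and the 2 incisor sites at -79.9 and 112 kb.

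The fifth molar site (48693680 to 48695443), 31.5 kb past the start, also had a peak in ectoderm replicate 1 and Sox2-positive replicate 1. Next to it, 35.4 kb past the start, a site of 2092 bp (48697367 to 48699458) was present in all 7 libraries. Its −log10 p was 8.85 and 7.06 in ectoderm, 5.41 and 4.85 in the sorted cells, 3.85 in incisor, 6.03 in lower molar and 6.12 in upper molar. The incisor peak there was the weakest placed, at rank 42014 of 62074, and dropped out of the top 38000, whereas the molar peaks ranked 13493 and 12548.

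Of the 5 incisor sites without a molar peak, 3 had a peak in whole incisor alone. The strongest, 112 kb past the Barx1 start (48774357 to 48775095), had a −log10 p of 4.39 and ranked 30056. Only 1 site, inside Phf2 at 145 kb past the start (48807384 to 48808295), had a peak in all 3 incisor libraries and in neither molar. Its −log10 p was 3.19 and 3.51 in the sorted cells and 3.17 in incisor, and it also had a peak in ectoderm replicate 1 (4.08). In incisor it ranked 59939 of 62074. It was no longer such a site in the top 38000 lists, and another took its place: a site inside Ptpdc1, at -79.9 kb, where both molars had peaks at ranks 49726 and 51241.

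The peak of smallest p-value in the Barx1 window was at the same site in all 7 libraries, at -117 kb, between genes (48545372 to 48546996). It had a −log10 p of 9.28 and 8.59 in ectoderm, 9.14 and 9.99 in the sorted cells, 10.7 in incisor, 10.2 in lower molar and 9.87 in upper molar. Other sites in all 7 libraries lay over the ends of Zfp169 and Ptpdc1, at -150 and -37.4 kb, and between genes 120 kb past the start. A site 105 kb past the start (48767944 to 48768648) was present in every library but ectoderm replicate 2. Its −log10 p was 3.46 in ectoderm replicate 1, 4.73 and 5.16 in the sorted cells, 5.90 in incisor, 8.33 in lower molar and 8.07 in upper molar. In each molar it was above the sites at -150 and -37.4 kb, which had 6.80 and 7.81 in lower molar and 6.76 and 7.99 in upper molar. It was not above the site 120 kb past the start, which had 8.50 in lower molar and 8.07 in upper molar. Sites in all 7 libraries numbered 5 of 43, against 14.2% of all sites (4 of 26 against 19.2% in the top 38000 lists). At Isl1 they numbered 2 of 15 (2 of 11).

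Between ectoderm and Sox2-positive cells, 10 Barx1 sites of the 34 compared were in both ectoderm and in neither Sox2-positive library (23.2% of all sites), and 2 were in both Sox2-positive libraries and in neither ectoderm library (7.68%). There were 4 and 3 of 24 sites in the top 38000 lists, against 18.6% and 14.3%, near the background in either case. The Sox2-positive sites of the full lists were at -111 and -79.9 kb, and both had a peak in all 3 whole teeth as well. Of the ectoderm sites, 4 were within 20 kb of Barx1. Another 2, centred 43.5 and 60.8 kb past the start, had a peak in both ectoderm libraries (−log10 p 6.77 and 5.51 at the nearer, 6.21 and 5.12 at the farther), stayed in both top 38000 lists and had none in any P2 library.

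The molars of the lower and upper jaw were compared in the same way. At Isl1 they had the same 4 sites. Around Barx1, 5 of 24 molar sites were in lower molar only (12.0% of all sites) and 3 in upper molar only (10.3%). Among the top 38000 peaks there were 1 and 0 of 11, against 10.1% and 10.3%. None of the 8 sites in a single molar had a top 38000 peak in that molar. The 1 site among the top 38000 peaks lay inside Phf2, 148 kb past the start, and had a peak of both molars in the full lists.

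**Figure D4:**
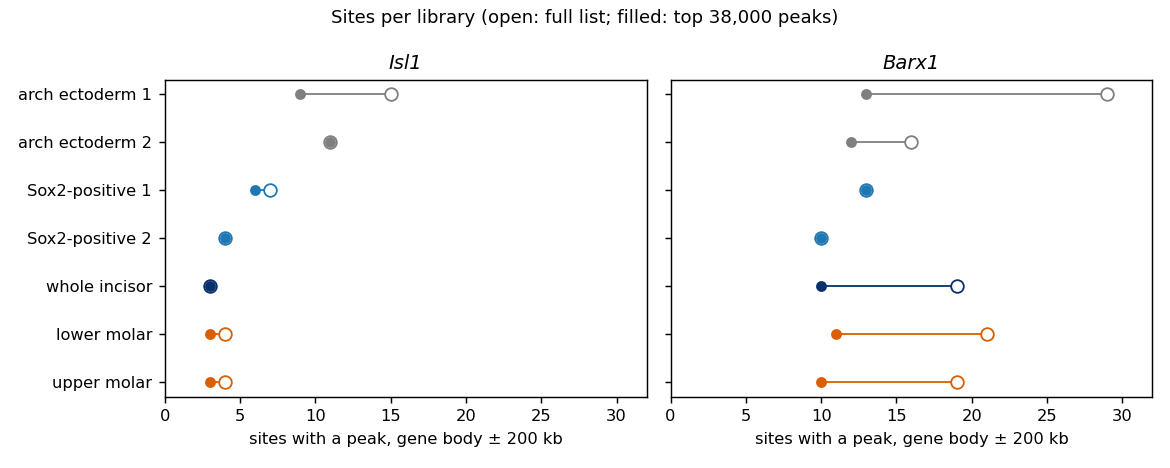
Number of sites with a peak within 200 kb of the Isl1 (left) and Barx1 (right) gene bodies in each library, for the full lists (open circles) and the top 38000 peaks per library (filled circles). The ectoderm libraries have the most sites at Isl1, with 15 and 11, and the P2 libraries 3 to 7. At Barx1 the filled circles lie between 10 and 13 in all libraries.

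The libraries' counts around a gene can be compared with those around other genes. By the Pearson correlation of top 38000 peak counts within 200 kb over the 7 libraries, the genes most like Isl1 were Peli1 (r = 0.997), Aggf1, Pou3f2, Gm6408 and Brms1l (the last 3 at 0.992), among 6996 genes with a total between 50% and 200% of that of Isl1. Peli1 had 8 and 9 peaks in ectoderm, 6 and 5 in the sorted cells and 4 in each whole tooth. The genes most like Barx1 were Mtrf1 (r = 0.985), Myo6, Slc25a36, Apmap and A1bg (down to 0.961), among 12572 genes. With 7 counts per gene, taken from the same libraries, such values are a description.

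Other genes of the jaw and tooth pathway give the setting for Isl1 and Barx1. For each, sites within 200 kb in both molars and not in incisor were set against sites in incisor and in neither molar, and a gene leaned one way where the same count was larger in the full and in the top 38000 lists. Over all 20665 genes 24.6% leaned to molar and 21.6% to incisor. The gene lists that follow were chosen with earlier results of these data known. Their counts beside these shares are therefore a description and not a test. Isl1 (2 against 1 in the full lists, 1 against 1 in the top 38000) and Barx1 (5 against 5, 3 against 2) leaned neither way.

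Of 6 genes of the distal, incisor side of the jaw, 4 leaned to incisor, none to molar and 2 neither way. Alx4, a homeobox gene of the distal mesenchyme, had 14 incisor sites against 2 molar sites. Hand2, a basic helix-loop-helix factor of the lower jaw, had 13 against 2. Msx1 and Hand1 had 7 against 3 each. Bmp4, the distal signal that holds Barx1 back, had 2 of each and leaned neither way, and Msx2 had 3 incisor against 10 molar sites in the full lists and 2 against 1 in the top 38000.

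Of 7 genes of the proximal, molar side, 5 leaned to molar, 1 to incisor and 1 neither way. Pitx1, a homeobox gene of the proximal lower jaw, had 14 molar against 4 incisor sites. Fgf8, the inducer of Barx1, had 5 against 3, and Lhx6 7 against 5. Dlx1 and Dlx2 had 4 against 1 each, but these neighbours share their sites. Lhx8 leaned to incisor, with 5 against 3, and Fgf9 neither way. The 3 genes of the early dental epithelium leaned to molar (Shh 12 against 0, Tbx1 11 against 6, Sox2 2 against 0). With 1 library per tooth these leans have no replicate check, and nearby genes share sites. A molar site had to be in both the lower and the upper molar, while the incisor came from the lower jaw only. A site in 1 molar alone was counted on neither side, so jaw and tooth type are not fully separated in the leans.

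**Figure D5:**
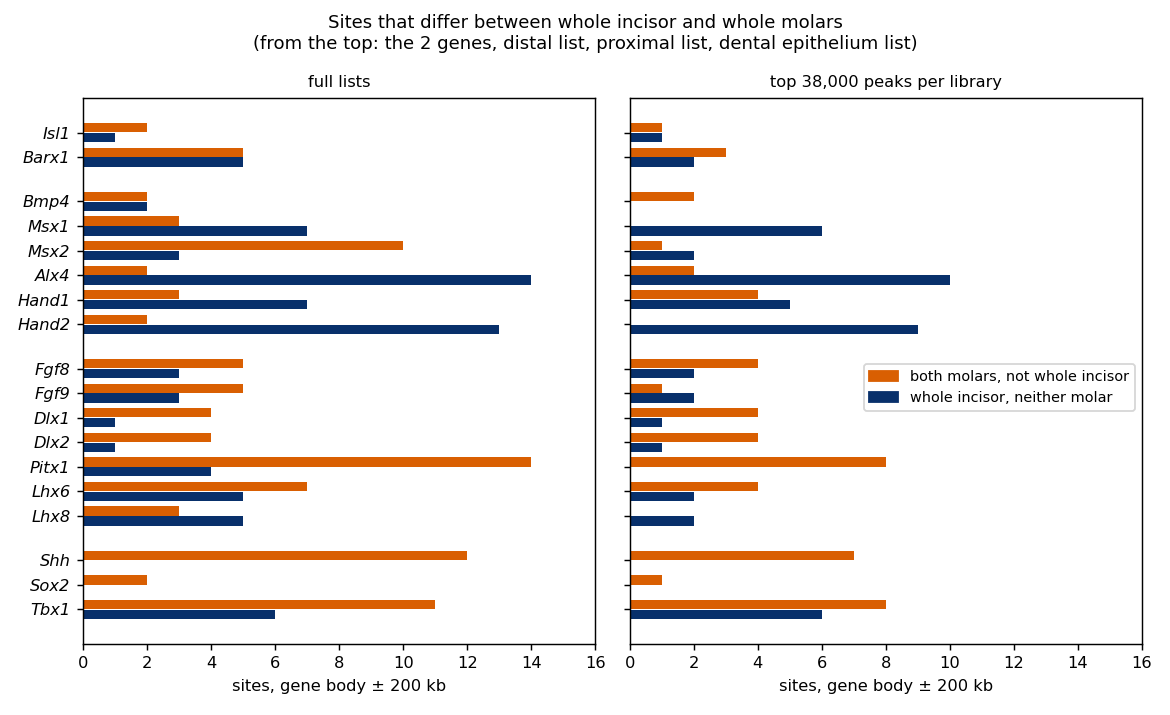
Number of sites within 200 kb of each gene body that had a peak in both molars and not in whole incisor (orange) or in whole incisor and in neither molar (blue), for the full lists (left) and the top 38000 peaks per library (right). From the top are Isl1 and Barx1, 6 distal genes, 7 proximal genes and 3 dental epithelium genes. The blue bars are longer in both panels for 4 of 6 distal genes, and the orange bars for 5 of 7 proximal genes. The lists were chosen with earlier results of these data known.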

How the data were processed

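ATAC-seq peak lists of 7 mouse libraries were used, 1 list per library, so peaks were called per library. The submitters' processing notes name FastQC, Trimmomatic, Bowtie2, deepTools, Genrich and the build mm10, without versions or options, and the handling of the transposase offset is not given in the sources used here. Each deposited list gives a signal per peak, which Genrich normally computes as the area of the peak in its significance track, and no listed signal was below 200.001. The deposited −log10 p was used to rank peaks within a list. Read depth is unknown, so no count model, interval or test was applied, and the number of peaks depends on depth.

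Autosomal peaks (38326 to 80850 per library) were joined into sites at 1 bp of overlap. A site belonged to a replicated group if both libraries had it. Counts were repeated with the top 38000 peaks per library by −log10 p, from which sites were rebuilt; a single site is said to be kept where a top 38000 peak overlapped it. Shares called background are over all sites with a peak in a compared library. Genes, starts and strands came from RefSeq tables of GRCm38.p6, the same assembly as mm10. Exons were not used here. Named genes are the members, 3 lists, neighbours, the 5 most alike genes and sites by class. Some genes of the lists and markers are not reported here and were left out of their counts. Members and lists were chosen with earlier results of these data known, as were the motifs and markers. The site joining was tested on simulated data. Python 3.11.15 and pandas 2.3.3 were used.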

Additional observations from a re-analysis of the deposited data

How the results depend on the processing

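Peak lists without read counts, 1 library per whole tooth and a listing threshold on signal limit these results, and an unlisted site is not shown to be closed. The windows of 20 kb were added after seeing the data, and the other alternatives were planned. No paired analysis was possible because the results are counts of sites that come from no test. The single Isl1 site in incisor and in neither molar was found under all 12 alternatives. Several of these could not have changed it. Smaller windows keep a site 0.305 kb from the gene body, and neither shorter lists nor leaving out a molar can add a molar peak. No Isl1 site was in both Sox2-positive and in neither ectoderm library under 13 alternatives. Values that moved by more than 1.5 times follow, and the cause was not tested where the setting does not itself remove peaks or area.

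With the top 38000 peaks by −log10 p, molar sites without incisor fell to 1 at Isl1 and 3 at Barx1, incisor sites without molar to 2 at Barx1, and ectoderm sites without Sox2-positive to 4 at Barx1. By peak signal the counts were 1 for Isl1 molar, 1 for Barx1 incisor, 4 for Barx1 ectoderm and 4 for Barx1 Sox2-positive sites. The better 50% of each list gave 1 Isl1 molar site, and at Barx1 3 molar, 2 incisor, 4 ectoderm and 1 Sox2-positive sites. Requiring 50% of a site to be covered left 0 molar sites at Isl1 and 3 at Barx1. Taking all 3 incisor libraries together gave 1 molar site at Isl1 and 1 incisor site at Barx1. Within 100 kb there were 0 molar and 1 ectoderm sites at Isl1, and 2 incisor and 1 Sox2-positive sites at Barx1. Within 50 kb there were 0 molar and 1 ectoderm sites at Isl1, and 0 incisor, 5 ectoderm and 0 Sox2-positive sites at Barx1. Within 20 kb the counts were 0 and 1 at Isl1, and 0, 4 and 0 at Barx1. Leaving out each library in turn gave 4 to 8 ectoderm sites at Isl1 (8 without ectoderm replicate 2, 7 without Sox2-positive replicate 1), and at Barx1 7 to 8 molar sites (8 without upper molar), 10 to 20 ectoderm sites (20 without ectoderm replicate 2) and 2 to 5 Sox2-positive sites (4 without ectoderm replicate 1, 5 without Sox2-positive replicate 2).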
